A study of Mus musculus with 10 samples.

Results

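Mouse embryonic fibroblasts (MEFs) carrying a conditional Dicer knockout gene, called CDKO here, were compared after 4 days in 5 µM 4-hydroxytamoxifen (OHT) and without treatment. Each state was measured on 2 arrays, so the comparison uses 4 of the 10 arrays of the series. The others are CDKO cells at 1 µM OHT, and wild type (WT) MEFs at 5 µM OHT and untreated, with 2 arrays each. The labels give a 4-day treatment, a culture medium of DMEM with 10% serum, and no Cre transgene, strain or age of embryo. They describe all 10 samples as carrying the conditional gene although 4 titles name WT cells, and the titles were followed. Whether the 2 replicates of a group are separate cultures is not stated, so p-values measure the spread between arrays, which may be technical. Features were kept if the deposited log2 value averaged 4 or more in the 5 µM arrays or in the untreated CDKO arrays, which left 19649 of 45037 probe sets outside the array's control probe sets. The nearest values outside and inside this limit were 3.99995 and 4.00042. Of the members, 18586 reached 4 in both groups, 454 at 5 µM alone and 609 in untreated cells alone. They cover 10290 of 18193 genes with a single symbol, each represented by its probe set with the highest mean over all arrays.

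Dicer is the cytoplasmic RNase III enzyme that cuts hairpin precursors into mature microRNAs, which in turn repress mRNAs. OHT binds the estrogen receptor and is used in cell culture to send a Cre recombinase fused to that receptor's ligand-binding domain into the nucleus, where it deletes a gene flanked by loxP sites. Tamoxifen and its metabolites are also cationic and lipophilic, and are known to inhibit late enzymes of cholesterol synthesis. Cells short of sterols activate SREBP2, a transcription factor for the enzymes of that pathway, and cells exposed to electrophiles stabilise NRF2, which drives glutathione synthesis and quinone reduction.

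The Dicer1 transcript was read by 2 probe sets. Probe set 1427941_at gave 5.83 and 5.78 at 5 µM, against 7.09 and 5.99 in untreated CDKO cells. Probe set 1460571_at gave 5.90 and 5.49 at 5 µM, against 6.33 and 5.93 untreated. All 4 readings at 5 µM were below both untreated readings of their probe set, but for both probe sets by less than the spread of the untreated arrays. The differences were −0.73 ± 0.83 and −0.44 ± 0.26 (log2, SE of the fit, n = 2 arrays each, limma adjusted p = 0.929 and 0.746). In WT cells, whose titles name no conditional gene, the same probe sets differed by −1.62 ± 0.83 (limma adjusted p = 0.23) and −1.32 ± 0.26 (limma adjusted p = 0.027), the second of which passed the threshold. Whether these probe sets lie in the deleted part of the gene was not tested, so Dicer1 does not check the labels. Among the 12 measured genes of the microRNA pathway none passed the test, the median difference was −0.08, and the largest single difference was in Ago3, an Argonaute protein that holds microRNAs, with 7.25 and 7.72 at 5 µM against 5.44 and 6.91 untreated. Of 11 genes known as let-7 targets, a microRNA family, 8 had a positive difference, with a median of 0.20 that was 0.0057 without the first untreated array and 0.44 without the second, and again none passed. Hmga2, a chromatin protein and a classic let-7 target, gave 13.71 and 13.05 at 5 µM, against 12.22 and 12.88 untreated.

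Some features of the arrays bear on all values. The hybridisation spike-in controls split the arrays into a higher and a lower class, and in CDKO cells replicate 1 of the 5 µM and the untreated group lies in the higher class while replicate 2 of each lies in the lower, so every difference can also be read within a class, 1 array against 1. Replicates of CDKO cells were much less alike than those of WT cells: the median SD between replicates over the members was 0.297 at 5 µM and 0.319 untreated, compared with 0.0707 in treated and 0.0958 in untreated WT cells. The second 5 µM array correlated more closely with the second untreated array (Pearson r = 0.993) than with the other 5 µM array (r = 0.986). These correlations are over all probe sets outside the controls, members or not. The 18S rRNA control probe sets averaged 5.51 to 5.83 at 5 µM and 6.87 to 8.44 in untreated CDKO cells, with no overlap, and likewise 5.98 to 6.16 in treated and 11.2 to 11.6 in untreated WT cells. The part of these controls in the results was not tested. Of 13 fibroblast markers, 12 reached 4 at 5 µM and 13 untreated. Their mean level was 10.67 and 11.87 at 5 µM and 12.05 and 11.80 untreated, while Vim, a mesenchymal filament protein, stayed between 15.21 and 15.46 in all 4 arrays. Leukocyte and macrophage markers were also present, with 14 of 15 at 4 or more at 5 µM and 13 of 15 untreated. Their mean level was 8.17 and 6.47 at 5 µM and 7.54 and 6.54 untreated, higher in replicate 1 of both groups. Of the 8 endothelial markers only Emcn reached 4, and Pecam1, Cdh5, Kdr, Tek, Tie1, Vwf and Cldn5 did not.

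In the whole set, 30 probe sets passed an adjusted p of 0.05 in a limma fit to the 5 groups of all 10 arrays, which is 0.145% of the 20681 tested. The 24 that rose (0.116%) include 20 named genes, and the 6 that fell (0.029%) include 3. An unadjusted p under 0.05 was reached by 1839 (8.89%). This fit shares 1 spread over all 10 arrays, and the WT replicates were much tighter than the CDKO ones. The shared spread is therefore too small for CDKO differences, and so are their SE and adjusted p. The count depended on which arrays were fitted. Fitted on the 6 CDKO arrays alone, no probe set passed (lowest limma adjusted p = 0.332), with 891 at an unadjusted p under 0.05 (4.49% of 19846), and the same was true of the 4 compared arrays alone (lowest limma adjusted p = 0.85, with 952 unadjusted, 4.85%). All 30 had an unadjusted p under 0.05 in both of these fits and the same sign within both spike-in classes. They were selected on these same arrays, so neither is an independent check. Single arrays also moved the count. It was 0 higher and 0 lower without the first untreated array, 92 and 73 without the second, 12 and 1 without the first 5 µM array, and 129 and 40 without the second. Leaving out any 1 WT array left 2 higher and 0 lower. By size, 978 members lay higher at 5 µM by at least 1 on the log2 scale, which is a 2-fold change, and 786 lay lower. In 782 of the first and 648 of the second the arrays of the 2 groups did not overlap. Over all genes of the comparison the median difference was −0.0038.

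**Figure D1:**
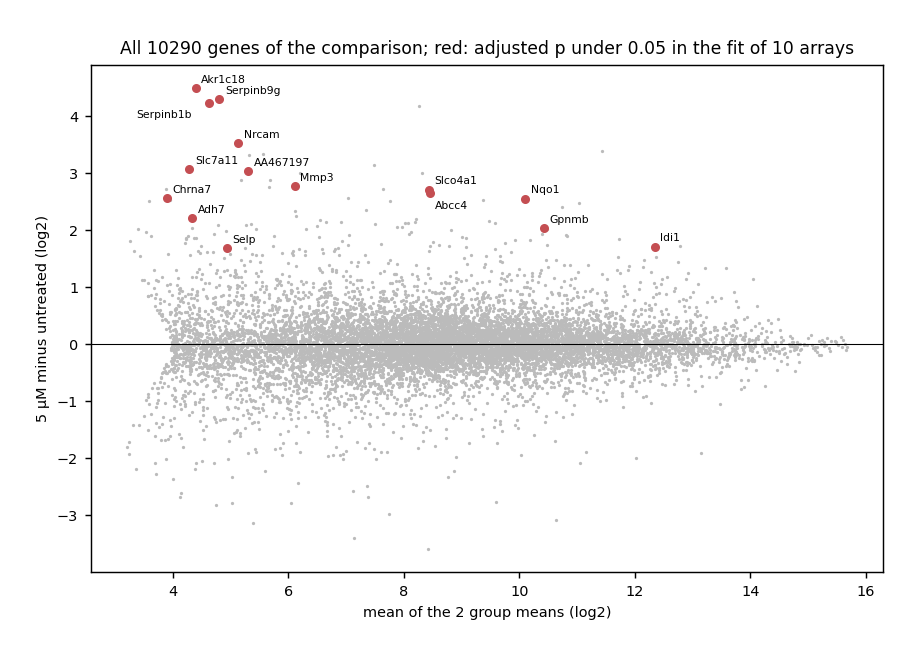
Difference between the 5 µM and the untreated group mean (log2, vertical) against the mean of both (log2, horizontal) for the 10290 genes, 1 grey point each. Red points are the 15 genes whose representative probe set passed the adjusted threshold, all of them higher at 5 µM.

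The largest rises were in genes with little or no signal in untreated cells. Of the 24 probe sets that rose, 16 had an untreated mean under 4, below the minimum used here for a measured level, so the size of their change is uncertain. Akr1c18, an aldo-keto reductase that inactivates progesterone, gave 7.38 and 5.91 at 5 µM, against 2.16 and 2.14 in untreated CDKO cells. The groups were far apart although the 5 µM arrays differed from each other, and the difference was 4.49 ± 0.44 (SE, limma adjusted p = 0.0335). Serpinb9g, a clade B serine protease inhibitor, gave 7.89 and 6.03 at 5 µM, against 2.68 and 2.65 untreated, a rise of 4.30 ± 0.52 (limma adjusted p = 0.0432). Serpinb1b, a relative of the neutrophil elastase inhibitor, gave 7.43 and 6.04 at 5 µM, against 2.52 and 2.50 untreated, and rose by 4.23 ± 0.47 (limma adjusted p = 0.0378). In all 3 genes the first 5 µM array was the higher one. Of the 7 other measured clade B genes, 4 had a positive difference and none passed. Serpinb2, an inhibitor of plasminogen activators, gave 7.86 and 6.11 at 5 µM, against 2.93 and 4.40 untreated (limma adjusted p = 0.14), whereas Serpinb1a gave 4.23 and 4.68 against 5.00 and 5.29.

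A second set of rises concerned membrane proteins. Nrcam, a neuronal cell adhesion molecule of the immunoglobulin family, gave 7.01 and 6.78 at 5 µM, against 2.95 and 3.79 untreated (difference 3.52 ± 0.32, limma adjusted p = 0.0261). Jam2, a junctional adhesion molecule, gave 5.40 and 4.90 at 5 µM, against 3.13 and 3.22 untreated on probe set 1431416_a_at (1.98 ± 0.23, limma adjusted p = 0.0378). Selp, the adhesion receptor P-selectin, gave 5.77 and 5.79 at 5 µM, against 3.91 and 4.27 untreated (1.69 ± 0.21, limma adjusted p = 0.0438). For each of them both treated arrays were above both untreated ones by more than the replicates differed. Chrna7, the alpha 7 subunit of the nicotinic acetylcholine receptor, gave 5.42 and 4.96 at 5 µM, against 2.33 and 2.92 untreated (2.56 ± 0.32, limma adjusted p = 0.0438). Abcc4, an ABC pump that exports cyclic nucleotides and organic anions, gave 9.73 and 9.83 at 5 µM, against 6.77 and 7.48 untreated (2.66 ± 0.25, limma adjusted p = 0.0312). Slco4a1, an organic anion transporter, gave 9.76 and 9.82 at 5 µM, against 6.90 and 7.25 untreated (2.71 ± 0.32, limma adjusted p = 0.0378). Abcc4 and Slco4a1 were well above the background in both states, so their changes are not set by a floor. They belong to a list of 9 measured drug efflux and anion transporters, of which 8 had a positive difference and 7 did not overlap between groups, beside 14.7% of all genes that were higher without overlap and 12.9% that were lower. Within that list Slco2a1, a prostaglandin transporter, gave 8.40 and 8.64 against 5.20 and 7.14, and Abcb1b, a P-glycoprotein, gave 8.61 and 7.97 against 7.19 and 7.50, with neither passing the test.

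Among the secreted and lysosomal proteins, Mmp3, the matrix protease stromelysin, gave 7.71 and 7.29 at 5 µM, against 4.56 and 4.89 untreated (2.77 ± 0.24, limma adjusted p = 0.0232). Its close relative Mmp10 had a larger but less even difference, with 10.05 and 10.67 at 5 µM against 4.50 and 7.84 untreated (4.19 ± 1.11, limma adjusted p = 0.265). The untreated arrays of Mmp10 differed by more than 3 on the log2 scale. Gpnmb, a lysosomal glycoprotein, gave 11.67 and 11.21 at 5 µM, against 9.27 and 9.54 untreated (2.03 ± 0.22, limma adjusted p = 0.0378). Gpnmb is also expressed by macrophages. Of 14 measured leukocyte and macrophage markers, 9 had a positive and 5 a negative difference, with a median of 0.22. Only 1 was higher without overlap, beside 14.7% of all genes, and none passed. The macrophage marker Cd68 gave 9.15 and 7.05 at 5 µM against 6.75 and 6.59 untreated, with 9.15 in the first treated array alone standing apart, and Ptprc, the pan-leukocyte marker, gave 6.08 and 3.04 against 4.44 and 3.06. The part of these cells in the Gpnmb result was not tested. In a mixed culture more cells of a type and more RNA per cell cannot be told apart. Of 22 lysosomal and autophagy genes, 16 had a positive difference, 8 did not overlap, all higher (14.7% of all genes), and Gpnmb alone passed (0.146% of all genes). Gla, the lysosomal alpha-galactosidase, gave 11.77 and 11.22 against 9.13 and 9.81. Adh7, a class IV alcohol dehydrogenase that oxidises retinol, gave 5.44 and 5.46 at 5 µM, against 2.94 and 3.53 untreated (2.22 ± 0.25, limma adjusted p = 0.0378). With Akr1c18 it accounts for both genes that passed in a list of 16 aldo-keto reductases and retinol dehydrogenases, whose median difference was 0.08.

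Apart from those of Slc7a11, Nqo1 and Idi1, given below, the remaining named probe sets that passed are not their gene's representative, as for Jam2. For several of these genes the other probe sets differed in size or direction. Map7d2, a microtubule-associated protein, gave 6.50 and 6.18 at 5 µM, against 2.44 and 2.38 untreated on 1429013_at (3.93 ± 0.24, limma adjusted p = 0.00479), and its other probe set differed by 1.16. Fam110c rose by 2.88 on 1449252_at and differed by 2.11 on its other probe set. Cpeb4, a protein that binds cytoplasmic polyadenylation elements, rose by 2.48 on 1449931_at and differed by 0.24 and 0.70 elsewhere. Bak1, a pro-apoptotic member of the Bcl-2 family, rose by 1.86 on 1425716_s_at and differed by −0.33 on its other probe set. The 3 named genes that fell are of this kind too. Tcf12, a basic helix-loop-helix transcription factor, gave 4.05 and 3.90 at 5 µM, against 5.90 and 5.78 untreated on 1439209_at (fell by 1.86), but differed by 0.46 and −0.04 on its others. Trps1, a GATA-type repressor, fell by 2.13 on 1457445_at and differed by −0.24, −0.49 and −0.19 elsewhere. Fbxl7, an F-box protein of a ubiquitin ligase, fell by 2.85 on 1440441_at and differed by −0.80 on its other probe set. Which transcripts these probe sets read was not tested. A further 6 probe sets that passed, 3 higher and 3 lower, have no single symbol in the annotation used here, and 1 representative probe set that rose carries only the name AA467197.

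**Figure D2:**
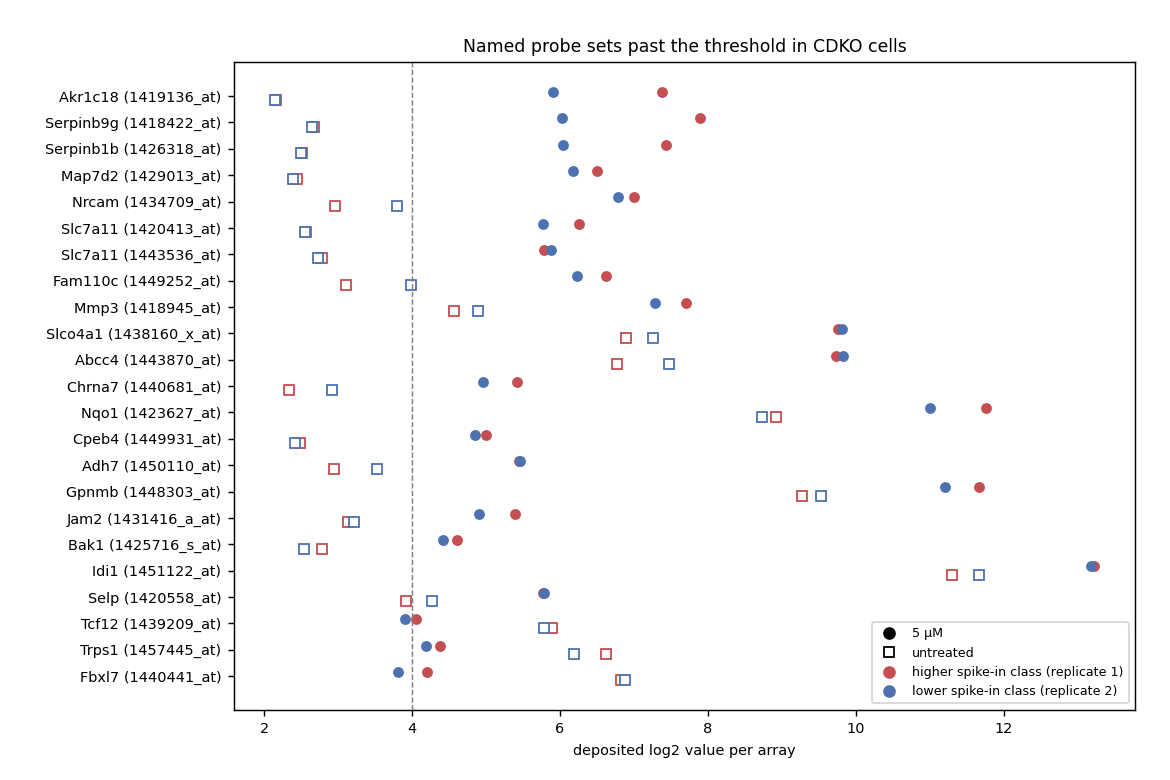
Deposited log2 values (horizontal) of the 23 named probe sets that passed the threshold, with the 2 arrays at 5 µM as filled circles above the 2 untreated arrays as open squares, and the probe set in parentheses. Red marks replicate 1 (higher spike-in class), blue replicate 2 (lower class), and the dashed line the minimum mean of 4. In all 23 the groups do not overlap.

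The NRF2 list holds genes of cystine uptake, glutathione and NADPH supply and quinone reduction. Of 17 measured, 16 had a positive difference, 14 were higher at 5 µM in both arrays than in either untreated array (14.7% of all genes were), and 2 passed (0.146% of all genes passed in that direction). The median difference was 0.94, and it was 1.06 and 0.93 within the higher and lower spike-in class. Slc7a11, the cystine-glutamate exchanger that imports the limiting amino acid of glutathione, gave 5.78 and 5.87 at 5 µM, against 2.78 and 2.73 untreated on 1443536_at (3.07 ± 0.23, limma adjusted p = 0.0114). Its second probe set, 1420413_at, gave 6.25 and 5.77 at 5 µM, against 2.56 and 2.55 untreated (3.46 ± 0.21, limma adjusted p = 0.00479). On both probe sets the untreated arrays lay under 4 and the treated arrays above it. Nqo1, the quinone reductase that is the standard NRF2 reporter, gave 11.76 and 11.01 at 5 µM, against 8.93 and 8.74 untreated (2.55 ± 0.30, limma adjusted p = 0.0378).

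Other members of the list lay clearly apart but did not pass. Srxn1, sulfiredoxin, gave 12.04 and 12.52 at 5 µM, against 9.36 and 10.25 untreated (2.48, limma adjusted p = 0.10). Gclc and Gclm, the catalytic and modifier subunits of glutamate-cysteine ligase, differed by 1.82 and 1.83, with 11.06 and 10.61 against 9.49 and 8.53 for Gclc and 10.56 and 11.65 against 8.95 and 9.60 for Gclm. A second Gclm probe set gave 9.22 and 9.22 at 5 µM, against 7.17 and 7.09 untreated (2.09, limma adjusted p = 0.0694). In none of these 3 genes did the groups overlap. Hmox1, heme oxygenase, gave 13.41 and 13.88 at 5 µM, against 11.05 and 12.79 untreated, and Txnrd1, thioredoxin reductase, gave 12.98 and 13.31 against 11.90 and 12.51. The regulators themselves overlapped between groups: Nfe2l2, which encodes NRF2, gave 12.03 and 12.40 against 11.76 and 12.42, and Keap1, its inhibitor, gave 7.76 and 8.16 against 8.43 and 7.95. Of 15 glutathione S-transferases 11 had a positive difference, led by Gsta4 with 10.71 and 10.63 against 9.67 and 8.42, and 6 were higher and 3 lower without overlap, beside 14.7% and 12.9% of all genes. The 4 measured genes of the aryl hydrocarbon receptor, another xenobiotic sensor, had a median of −0.03, with 2 positive and 2 negative and none passing. Its target Tiparp had the largest difference, 0.87, with 9.35 and 9.27 against 8.59 and 8.29 (limma adjusted p = 0.483). Other Tiparp probe sets differed by 0.95 and 1.15. The target Cyp1b1 gave 11.19 and 11.91 against 11.69 and 11.74.

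Promoters of the list were searched for the core of the antioxidant response element, TGACNNNGC, on both strands, in RefSeq sequence from 250 bases before to 50 after each start (mouse build GRCm38.p6). The core was present in 7 of 17 genes (41.2%), compared with 14.0% of all genes with a promoter in the table. The 3 with the largest change among those with a core upstream of the start are shown, in capitals the core or its reverse complement. They lie at chr3:122245403-122245451 on the plus strand, chr10:82859094-82859142 on the plus strand, and chr2:75704875-75704913 on the minus strand, and the first base of the core is 134, 92 and 240 bases before the start. A match is a description of these letters and not a binding site.
Gclm: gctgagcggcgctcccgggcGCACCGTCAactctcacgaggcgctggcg
Txnrd1: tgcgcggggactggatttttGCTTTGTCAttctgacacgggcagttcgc
Nfe2l2: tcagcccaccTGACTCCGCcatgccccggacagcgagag

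In cholesterol synthesis all 17 measured enzymes from mevalonate to cholesterol had a positive difference, and in 16 both treated arrays lay above both untreated ones, beside the 14.7% of all genes given above. The median difference was 1.23, with 1.31 and 1.21 within the 2 spike-in classes, and it stayed between 1.10 and 1.32 when any 1 of the 4 arrays was left out. The differences ran from 0.31 for Hmgcs1, an early synthase of the mevalonate pathway, to 1.87 for Tm7sf2, a sterol C14-reductase. Only Idi1, isopentenyl diphosphate isomerase, passed the test. It gave 13.22 and 13.18 at 5 µM, against 11.30 and 11.67 untreated (1.71 ± 0.21, limma adjusted p = 0.0432). Tm7sf2 gave 10.24 and 9.77 at 5 µM, against 8.56 and 7.73 untreated (limma adjusted p = 0.119). Nsdhl, which removes the C4 methyl groups of sterols, gave 12.91 and 12.39 at 5 µM, against 10.42 and 11.19 untreated (limma adjusted p = 0.224). All of these were abundant in both states, with the treated arrays above the untreated ones throughout.

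Along the pathway, the differences ran from 0.31 to 1.71 in the 6 measured enzymes up to farnesyl diphosphate and from 0.89 to 1.87 in the 11 after it. In the first stretch, Mvk, mevalonate kinase, gave 9.02 and 9.0 at 5 µM, against 7.81 and 8.41 untreated, and Fdps, which makes farnesyl diphosphate, gave 13.53 and 12.86 against 12.04 and 12.36. After squalene, Lss, which closes the sterol ring, gave 10.89 and 11.07 against 9.73 and 9.74, and Cyp51, the lanosterol demethylase, gave 12.78 and 12.86 against 11.36 and 11.56. The adjusted p was 0.07 for Lss and 0.06 for Cyp51 in limma. Ebp, the sterol isomerase that tamoxifen is known to bind, gave 11.10 and 10.93 at 5 µM, against 10.24 and 10.02 untreated, and Dhcr7, the last reductase, gave 8.76 and 10.16 against 8.27 and 8.86. Dhcr7 is the only enzyme of the 17 whose groups overlapped. The regulators of the pathway were less even. Of 13 genes of SREBP control and lipoprotein uptake, 9 had a positive difference, with a median that ran from −0.31 to 0.47 with 1 array left out. Higher without overlap were 4 (14.7% of all genes), among them Srebf2, which encodes SREBP2, with 9.45 and 10.08 against 8.84 and 9.08, and Stard4, a sterol carrier, with 10.36 and 10.19 against 9.35 and 8.86. Insig1, a sterol-regulated anchor of the SREBP escort, gave 10.36 and 12.39 against 10.86 and 11.59 and so overlapped.

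CCAAT, the box bound by NF-Y, a cofactor of SREBP, was present on either strand in a promoter of 14 of the 15 sterol enzymes with one in the table (93.3%), compared with 41.1% of all genes. The core of the sterol regulatory element, TCACNCCAC, was found in 1 of the 15 enzymes (6.67%, against 1.44% of all genes), which was Hmgcs1, the gene with the smallest difference. The stretches below are from the 3 enzymes with the largest differences, an addition made after their values were seen, and from Hmgcs1, with the CCAAT box (read here as its reverse complement) or the sterol element in capitals. They are the RefSeq sequences at chr19:6067873-6067917 (minus strand), chrX:72918392-72918520 (plus), chr13:8885541-8885605 (plus) and chr13:119690194-119690242 (plus).
Tm7sf2: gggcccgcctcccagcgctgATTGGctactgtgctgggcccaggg
Nsdhl: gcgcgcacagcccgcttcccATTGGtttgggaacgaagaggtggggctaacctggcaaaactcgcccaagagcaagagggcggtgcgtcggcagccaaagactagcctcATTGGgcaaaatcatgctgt
Idi1: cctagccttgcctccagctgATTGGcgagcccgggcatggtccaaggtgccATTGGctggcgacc
Hmgcs1: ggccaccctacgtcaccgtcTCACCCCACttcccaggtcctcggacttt

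In fatty acid synthesis and desaturation all 14 measured genes were positive, 10 without overlap (14.7% of all genes were higher without overlap), with a median of 0.70 and none past the test. Acss2, an acetyl-CoA synthetase, had the largest difference, 2.12, with 9.59 and 8.57 at 5 µM against 8.33 and 5.59 untreated. Scd1, the stearoyl-CoA desaturase, gave 12.19 and 13.00 at 5 µM, against 11.08 and 11.34 untreated. Elovl6, a fatty acid elongase, gave 10.06 and 10.83 against 8.68 and 9.12, and Fasn, fatty acid synthase, gave 11.67 and 12.42 against 10.40 and 11.22. In the last 3 of these genes the second treated array was the higher one, and in Acss2 the first. Sterol export had no common direction. Of 8 genes, 4 were positive, and Abca1, the cholesterol efflux pump and an LXR target, gave 5.52 and 6.58 at 5 µM, against 10.02 and 7.44 untreated (−2.68 ± 0.82, limma adjusted p = 0.341).

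**Figure D3:**
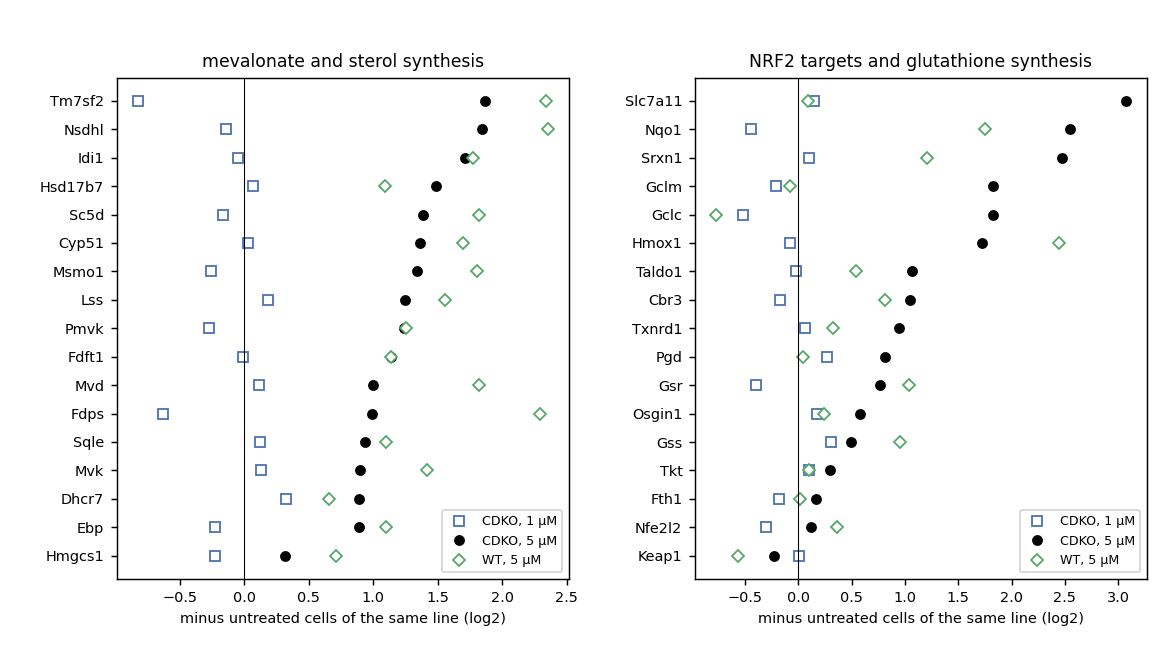
Difference from untreated cells of the same line (log2, horizontal) for each measured gene of cholesterol synthesis (left) and of the NRF2 list (right). Blue squares are CDKO cells at 1 µM OHT, black circles CDKO cells at 5 µM and green diamonds WT cells at 5 µM. In the left panel all 17 black circles lie above 0, with the blue squares between −0.83 and 0.32.

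The genes of glycolysis and the hypoxia response also lay higher. All 18 measured were positive, 11 without overlap (14.7% of all genes). The median was 0.63, and it was 0.32 without the first untreated array and 0.94 without the second. Slc2a1, the glucose transporter GLUT1, gave 13.71 and 13.40 at 5 µM, against 12.28 and 12.31 untreated (1.25, limma adjusted p = 0.10). Egln3, an oxygen-sensing prolyl hydroxylase, gave 8.94 and 9.12 against 5.22 and 7.79, where the untreated arrays were as far apart as the group means. Aldoc, an aldolase named for its size of change, gave 7.42 and 7.99 at 5 µM, against 4.67 and 4.73 untreated (3.01 ± 0.39, limma adjusted p = 0.0509). Among chemokines and cytokines 12 of 17 were positive. Without overlap 9 were higher and 2 lower, beside 14.7% and 12.9% of all genes. The median was 0.91, with 1.37 in the first pair of arrays and 0.30 in the second, and it was 0.34 without the first untreated array. Il6 shows the pattern, with 10.51 and 10.35 at 5 µM against 8.06 and 10.34 untreated, so that only the first untreated array was low. Il11, a cytokine of the same receptor family, gave 9.85 and 11.46 against 7.46 and 9.58.

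The lists with lower values at 5 µM differed more between the pairs of arrays. Of 24 mitotic genes 23 had a negative difference and 15 were lower without overlap, beside 12.9% of all genes, but none passed. Their median difference was −0.90, and it was −1.56 in the replicate 1 pair and −0.35 in the replicate 2 pair. It was −0.29 without the first untreated array and −1.42 without the second. Mki67, the proliferation marker Ki-67, gave 7.54 and 7.61 at 5 µM, against 9.57 and 8.0 untreated. Plk1, a mitotic kinase, gave 5.54 and 6.72 against 7.30 and 7.25. The first untreated array was the high one for Mki67, whereas the untreated arrays of Plk1 were alike. Genes of DNA replication had a median of −0.18, with 20 of 25 negative and 6 lower without overlap (12.9% of all genes). The median turned to 0.04 without the second 5 µM array. Of 19 G1 cyclins, kinases and inhibitors 12 were negative (median −0.12), and Cdkn2a, the p16 and p19 tumour suppressor locus, gave 10.73 and 9.38 at 5 µM, against 9.07 and 8.34 untreated. Of 22 p53 targets 12 were positive with a median of 0.01, and Cdkn1a, the p21 inhibitor, gave 13.07 and 13.50 against 13.32 and 13.74.

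The matrix genes behaved alike. Of 28 collagens, fibrillins and other matrix proteins 25 had a negative difference and 8 were lower without overlap (12.9% of all genes), none passing. The median was −0.62, made up of −1.25 in the replicate 1 pair and −0.03 in the replicate 2 pair, and without the first 5 µM array it turned to 0.10. Col3a1, the collagen III chain, gave 11.03 and 13.37 at 5 µM, against 14.16 and 14.05 untreated. Fbn2, fibrillin 2, gave 5.08 and 7.43 against 10.49 and 7.98, and Dcn, the proteoglycan decorin, gave 7.32 and 10.56 against 10.94 and 9.97. The first 5 µM array held the lowest value in each. The same array had the lowest mean of the fibroblast markers given above, and the part of that in the matrix result was not tested. Large negative differences that did not pass were also seen for Aspn, asporin, with 6.05 and 7.22 against 11.63 and 8.81 (−3.59 ± 1.05, limma adjusted p = 0.308), Ogn, osteoglycin, with 7.42 and 9.03 against 12.16 and 9.79, and Ptn, the growth factor pleiotrophin, with 8.31 and 9.89 against 12.92 and 11.44 (−3.08 ± 0.64, limma adjusted p = 0.155). Of 19 actin and contractile genes 18 were negative and 9 lower without overlap, beside 12.9% of all genes. Their median was −0.37, and it was −0.10 without the first 5 µM array. The largest difference was in Myh11, smooth muscle myosin, with 6.08 and 7.24 against 8.92 and 8.17, while Acta2, smooth muscle actin, gave 15.04 and 15.13 against 15.25 and 15.20. Genes of TGF-beta and BMP signalling had a median of −0.02, those of the unfolded protein response −0.05, estrogen-responsive genes 0.17 with 6 of 10 positive, matrix metalloproteinases and inhibitors 0.23, and cytosolic ribosomal proteins −0.06.

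**Figure D4:**
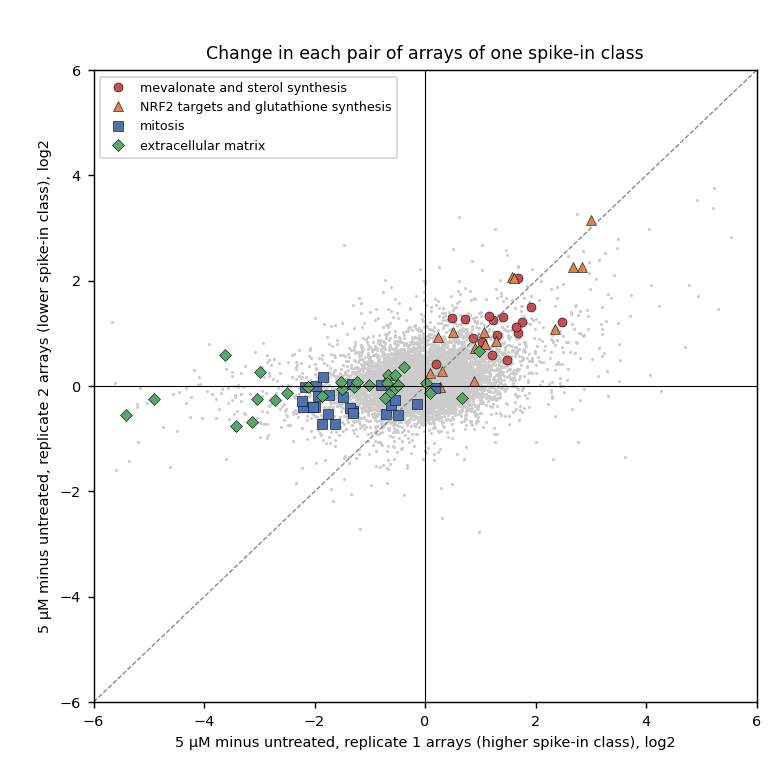
Difference between 5 µM and untreated in the replicate 1 arrays (higher spike-in class, horizontal) and in the replicate 2 arrays (lower class, vertical), both log2, with 1 point per gene. Sterol synthesis (red circles) and NRF2 genes (orange triangles) have medians near the dashed line of equal change, 1.31 and 1.21, and 1.06 and 0.93. Single genes lie off the line, such as Nsdhl at 2.48 and 1.21. Matrix (green diamonds) and mitotic genes (blue squares) extend to the left near a vertical value of 0.

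At 1 µM OHT, which was measured in the same CDKO line and is set against the same untreated arrays, no probe set passed in limma, with 710 at an unadjusted p under 0.05. The median difference at 1 µM was −0.05 for sterol synthesis, −0.03 for the NRF2 list, 0.08 for fatty acid synthesis and 0.21 for glycolysis and hypoxia, beside 1.23, 0.94, 0.70 and 0.63 at 5 µM. Akr1c18 gave 2.15 and 2.14 at 1 µM, Slc7a11 gave 3.18 and 2.62 on 1443536_at, Nqo1 gave 8.27 and 8.50, and Idi1 gave 11.58 and 11.30, and these 4 differed from untreated cells by −0.45 to 0.15. Between the 2 doses, 33 probe sets were higher at 5 µM than at 1 µM (0.16%) and 2 lower (0.00967%), and this contrast shares its 5 µM arrays with the main one. Among the 24 probe sets that rose over untreated cells, Adh7 is the 1 whose difference at 1 µM, 1.40, was over 0.5 times that at 5 µM, with 4.49 and 4.78 at 1 µM. Without the second 1 µM array 7 were higher between doses, and without the first 1365 were. The second 1 µM array stood apart in its controls, with a Gapdh 3′ minus 5′ difference of 1.58 and an 18S mean of 10.2, beside −0.0985 and 5.21 in the first, and its part in these counts was not tested. Interferon-stimulated genes had a median of −0.97 at 1 µM and −0.58 at 5 µM.

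WT cells given 5 µM OHT share no array with the CDKO comparison. There 1909 probe sets passed (9.23%), of which 725 rose (3.51%) and 1184 fell (5.73%), and among the 10290 genes 3.34% rose and 4.11% fell. The counts of rises and falls were 16 to 56 and 49 to 220 when any 1 of the 4 WT arrays was left out. Other values moved with this contrast. For Gapdh, the 3′ control probe set minus the 5′ one gave −0.0977 and −0.105 in treated and 0.894 and 0.671 in untreated WT cells. The mean of the 8 epithelial markers was 4.23 and 4.27 in treated and 5.63 and 5.54 in untreated WT cells, and that of the 12 skeletal muscle markers was 4.63 and 4.67 in treated and 6.15 and 6.08 in untreated ones. The part of these in the WT results was not tested. All 17 sterol enzymes were positive in WT cells too and 13 passed, with a median of 1.56 beside 1.23 in CDKO cells. No enzyme passed the test of the difference between lines. Idi1 gave 13.31 and 13.30 in treated WT cells, against 11.51 and 11.56 in untreated ones, a rise of 1.77 that differed from that in CDKO cells by −0.06 ± 0.30. Of the 24 probe sets that rose in CDKO cells, 10 averaged under 4 in both WT groups, so that the sign of their difference there cannot be read, and 9 rose in WT cells, among them Akr1c18 by 3.08, Mmp3 by 3.21, Gpnmb by 3.24, Nqo1 by 1.75 and Jam2 by 2.79. Of the 6 that fell, 4 fell in WT cells too.

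A test of the difference between the responses of the lines passed for 5 of the 24, namely both Slc7a11 probe sets, Nrcam, Map7d2 and Abcc4. Over all tested probe sets 72 passed (0.348%), 59 in that direction (0.285%) and 13 in the other (0.0629%), and among the genes of the comparison 0.0486% and 0.0389% did. The 24 were selected on the CDKO difference, which is part of this test, so their count cannot be read against these shares. Slc7a11 gave 2.80 and 2.79 in treated WT cells, against 2.72 and 2.69 in untreated ones, on 1443536_at, so the transcript stayed near the floor where the CDKO cells had reached 5.78 and 5.87. Abcc4 gave 6.61 and 6.56 in treated WT cells, against 7.07 and 7.17 untreated, and Nrcam gave 3.99 and 3.65 against 4.15 and 4.39. In the NRF2 list, read on the representative probe sets, the WT median was 0.33 with 14 of 17 positive and 1 passing. Gclc differed by −0.78 and Gclm by −0.08 in WT cells, beside 1.82 and 1.83 in CDKO cells, but neither difference between lines passed. The second Gclm probe set differed by 1.12 in WT cells (limma adjusted p = 0.0602) and by 2.09 in CDKO cells, so the Gclm probe sets do not give the same WT value. The representative Srxn1 probe set differed by 1.20 in WT cells (limma adjusted p = 0.0977). Another rose by 3.68, with 8.10 and 8.16 treated against 4.02 and 4.88 untreated (limma adjusted p = 0.0434). A further one differed by 3.80 (limma adjusted p = 0.0515). In CDKO cells the last 2 differed by 2.73 and 3.11. None of these Srxn1 probe sets passed the test of the difference between lines. Interferon-stimulated genes, which belong to the antiviral response, ran opposite ways: in CDKO cells 11 of 14 were lower at 5 µM without overlap, beside 12.9% of all genes, and none passed, with a median of −0.58 that was −0.42 without the first untreated array and −0.96 without the second. In WT cells all 14 were positive and 4 rose, with a median of 1.33. Ifit1, which binds foreign RNA ends, gave 4.10 and 5.80 in treated CDKO cells against 8.37 and 6.39 untreated, and 5.77 and 5.94 in treated WT cells against 3.53 and 3.21 untreated. None of the 14 passed the test of the difference between lines. Mitotic genes were lower in both lines, with a median of −2.0 in WT cells where 13 of 24 fell.

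**Figure D5:**
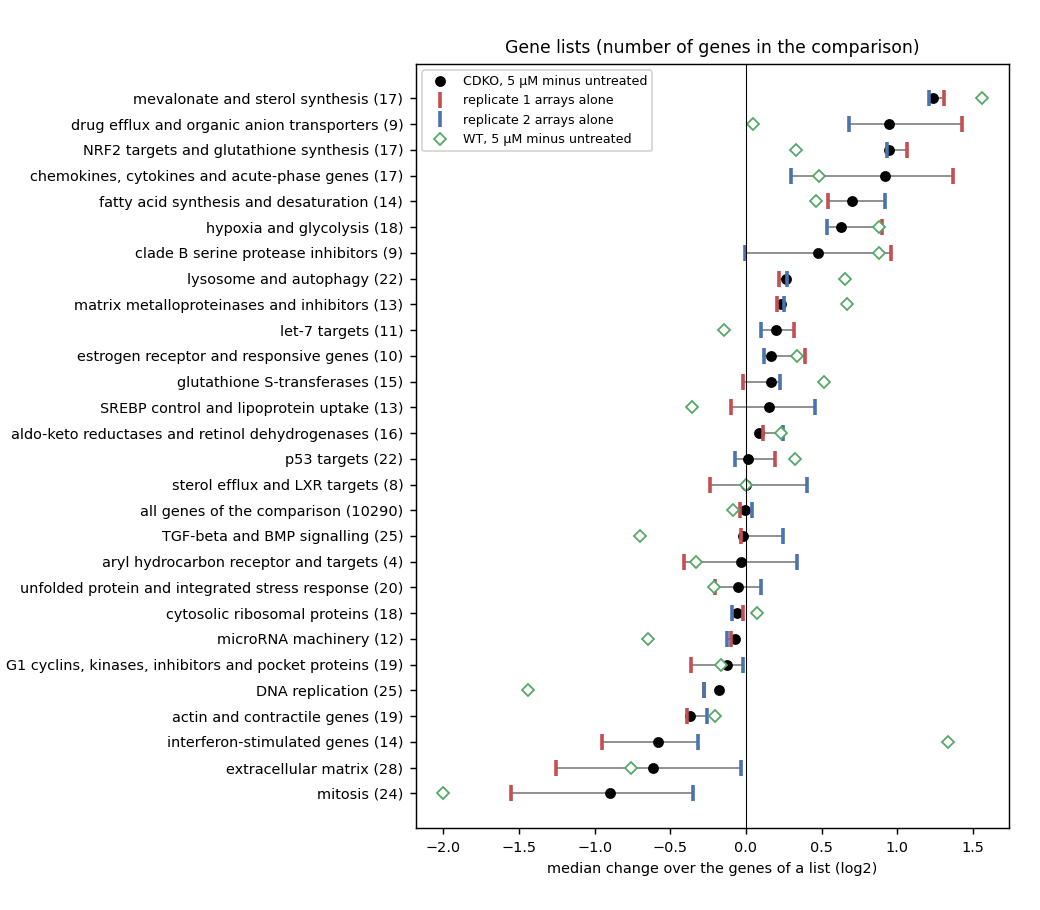
Median difference between 5 µM OHT and untreated (log2, horizontal) over the genes of each list, with their number in parentheses. Black circles are CDKO cells, red and blue bars the same in the replicate 1 and replicate 2 arrays alone, and green diamonds WT cells. Sterol synthesis has the highest CDKO median, 1.23, and mitosis the lowest, −0.90, and interferon-stimulated genes lie at −0.58 in CDKO and at 1.33 in WT cells.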

How the data were processed

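Total RNA of 10 samples was hybridised to Affymetrix arrays. The table holds log2 values as the authors deposited them. GCRMA is named as the tool in the submitters' processing notes. The log2 scale was read from the range of the values. Probe-level filters and the chip definition are unknown. Arrays were not normalized further. Of 45101 probe sets, 64 controls did not enter the tests. A probe set was tested if any group averaged 4 or more, which gave 20681. The fit used limma 3.58.1 under R 4.3.3 (lmFit over the 5 groups, eBayes, 5 residual degrees of freedom), with Benjamini-Hochberg adjustment over all of them and a threshold of 0.05. Differences are group means on the log2 scale, errors are the SE of the fit, and the number of arrays limits the precision. Symbols came from the platform annotation: 34945 probe sets have 1 symbol, 932 several and 9160 none, and genes with several were not named. The fit was also run on simulated data, whose outcome is not given here and is not used for any result.

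Named are the genes and probe sets that passed, up to 10 genes in each direction with the largest change at a level of 4 or more in both groups without overlap, up to 5 that crossed 4, up to 4 genes with the largest change in each of 27 gene lists, and Dicer1. Other members of a list are named as examples of its parts, after their values were seen. The members and lists were chosen with earlier results of these data known. Promoter letters come from the RefSeq table of build GRCm38.p6. Alternatives changed the filter, the arrays fitted, weights, prior, normalization, blocks and single arrays. Replicate numbers were not taken as pairs in the main fit, since the labels state no pairing. Deviations of same-numbered arrays correlated at 0.43 between 5 µM and untreated CDKO cells, where same-numbered arrays share a spike-in class. Between 1 µM and untreated the correlation was −0.46.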

Additional observations from a re-analysis of the deposited data

Results flagged for a closer look

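For 5 of the probe sets that rose at 5 µM OHT in CDKO cells, the response differed from that of WT cells in a test of the difference itself (limma, CDKO response minus WT response, adjusted over 20681 probe sets). The difference was 3.98 for Nrcam on 1434709_at, 3.60 for Map7d2 on 1429013_at, 3.37 for Slc7a11 on 1420413_at, 3.19 for Abcc4 on 1443870_at and 2.98 for Slc7a11 on 1443536_at, all log2 and with both treated CDKO arrays above both untreated ones. Nrcam differed by 3.52 in CDKO cells and by −0.45 in WT cells, and Abcc4 by 2.66 and −0.54. Map7d2 gave 2.42 and 3.0 in treated WT cells, against 2.37 and 2.39 untreated, under the minimum of 4 in all 4 arrays. These 5 probe sets were selected on the CDKO difference, which is part of the test, so the test is not independent of that choice.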

How the results depend on the processing

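Against the 24 higher and 6 lower probe sets for 5 µM against untreated CDKO cells, the count of lower ones was 14 without a filter, 0 with 1 probe set per gene and 10 when spike-in class was blocked. The count of higher ones was 8 with arrays centred on their medians. Fits of the 6 CDKO arrays and of the 4 compared arrays gave 0 and 0, and array weights gave 2 and 0. With the replicate number as a block 3 and 0 passed, although the labels state no pairing by number. Leaving out 1 of the 10 arrays gave 0 to 129 higher and 0 to 73 lower. For 1 µM, where 0 passed, leaving out 1 array gave 0 to 141 higher and 0 to 380 lower. For 5 against 1 µM (33 and 2), 6 were lower without a filter, 14 higher after quantile normalization, 0 and 0 in the 6 CDKO arrays, 3 and 0 with the replicate block, and 7 to 1365 and 0 to 624 with 1 array left out. For WT cells (725 and 1184) the replicate block gave 421 and 769, and leaving out 1 array 16 to 56 and 49 to 220. For the difference between lines (59 and 13), no filter gave 139 and 55, the replicate block 29 and 6, and leaving out 1 array 9 to 77 and 0 to 15. The groups do not overlap in the 23 named probe sets that passed, so leaving out 1 array could not turn their sign. All 23 kept their sign under the other alternatives run too. Of them 23 passed after quantile normalization, 20 with a trended prior, 18 with the spike-in block, 13 without a filter, 3 with the replicate block, and 0 in the CDKO arrays alone or without the first untreated CDKO array. Of the 27 list medians, 12 changed sign under at least 1 alternative. The cause of these shifts was not tested. A fit with fewer arrays has fewer degrees of freedom, whereas the fit with array weights kept all 10 arrays. The spread shared with the tighter WT replicates is too small for the CDKO differences.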

Other observations

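Some genes outside the lists lay far apart in both pairs of arrays without passing the test. Rragd, a GTPase that links amino acid supply to mTORC1, gave 9.28 and 8.85 at 5 µM, against 5.79 and 6.06 in untreated CDKO cells (3.14 ± 0.58, limma adjusted p = 0.129). Slpi, a secreted inhibitor of leukocyte proteases, gave 6.90 and 7.35 at 5 µM, against 3.65 and 4.83 untreated (2.89 ± 0.39, limma adjusted p = 0.0641). Fgf2, basic fibroblast growth factor, gave 7.42 and 6.70 at 5 µM, against 4.01 and 4.58 untreated (2.76 ± 0.43, limma adjusted p = 0.0855), and rose by 2.20 in WT cells. In all 3 genes both treated arrays were more than 1 above both untreated ones.

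Crct1, an epidermal cornification gene, gave 13.67 and 12.59 at 5 µM, against 8.36 and 11.12 untreated, and rose by 5.75 in WT cells. Tnfrsf23, a decoy receptor for TRAIL, gave 8.74 and 9.25 at 5 µM, against 4.03 and 8.52 untreated, with 8.68 and 2.20 in the arrays at 1 µM, so that replicates of 1 group differed by more than the groups did. Atoh8, a basic helix-loop-helix factor, gave 3.09 and 3.54 at 5 µM, against 5.23 and 4.54 untreated. Jazf1, a zinc finger protein, gave 3.51 and 3.83 against 4.97 and 4.55. Of the 4 compared CDKO arrays, both genes were under 4 in the treated ones alone.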
